A study of Mus musculus with 4 samples.

Results

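Hox genes encode homeodomain transcription factors that stand in 4 clusters in the mouse genome, Hoxa on chromosome 6, Hoxb on chromosome 11, Hoxc on chromosome 15 and Hoxd on chromosome 2. Genes at the same place in different clusters form paralogue groups numbered 1 to 13, and the order along a cluster follows the order of expression along the body axis. Low-numbered groups are active in the hindbrain, from which the pontine nucleus arises, and high-numbered ones in the spinal cord and the limbs. In pontine neurons, Hoxa2 and Hoxb2 are known from mouse mutants to guide migration, and genes of group 5 mark neurons of posterior origin in the rhombic lip.

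The pontine nucleus, a relay from the cerebral cortex to the cerebellum in the ventral pons, was dissected from ICR mice at 4 ages. Each age was 1 pool of tissue on 1 Affymetrix array: 27 mice at embryonic day 17.5 (E17.5), 16 at postnatal day 1 (P1), 13 at postnatal day 5 (P5) and 12 at postnatal day 14 (P14). No genotype or treatment was given. Members were all genes whose probe set carried a single symbol made of Hoxa, Hoxb, Hoxc or Hoxd and a number, and where a gene had several probe sets the one highest on average was to be taken. This found 37 Hox genes among 19938 named genes on the array. Each of the 37 had 1 probe set. Hoxb8 is not among them, since its only named probe set is shared with Hoxb7.

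Values are the authors' normalised log2 signals, called levels here, and a difference of 1 between 2 arrays is 2-fold. With 1 array per age there was no replicate and no test, and the number of arrays limits the precision of every difference. Fewer cells of a type and less RNA per cell cannot be told apart in such tissue. The spread of a difference between probe sets of the same gene, over 594 genes with several, was 0.11 for P1 against E17.5 and at most 0.18 in any comparison (SD), and it leaves out the spread between pools of mice. The arrays went against the order of their labels. Over 9909 genes whose mean level reached the median of named probe sets, 8.41, the P14-labelled array correlated with P1 at Pearson's r = 0.962, against 0.805 for the P5-labelled array with P1 (across genes, which are not independent replicates). Of 1714 such genes with a 2-fold range, the value labelled P14 lay between P1 and the P5-labelled array in 86.2%. The deposited labels are used here, but the P1 against E17.5 comparison uses neither of these arrays. Markers of the pontine neuron, among them Barhl1 and Pax6 of the rhombic lip lineage, stood clear of the level of silent genes on all 4 arrays in 8 of 10 cases. Of the other 2, Lhx2 did so on 2 arrays and Lhx9 on none.

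Promoter sequences of 4 of the 5 Hox genes that were at least 2-fold lower on the P14-labelled array than at E17.5 are shown, because these genes carry the differences described next. The fifth, Hoxc5, has no entry in the table used. Each is RefSeq sequence of GRCm38.p6, running from 250 bases before to 50 after an annotated start, read 5′ to 3′ in the direction of transcription. Capitals mark 4 searched motifs on either strand: TGATNNAT, a form bound by Hox and Pbx proteins together; TGACAG, a form bound by Meis proteins; and AGGTCA and AGTTCA, half-sites of nuclear receptors such as those for retinoic acid.
Hoxa2, chr6:52164782-52165081, minus strand: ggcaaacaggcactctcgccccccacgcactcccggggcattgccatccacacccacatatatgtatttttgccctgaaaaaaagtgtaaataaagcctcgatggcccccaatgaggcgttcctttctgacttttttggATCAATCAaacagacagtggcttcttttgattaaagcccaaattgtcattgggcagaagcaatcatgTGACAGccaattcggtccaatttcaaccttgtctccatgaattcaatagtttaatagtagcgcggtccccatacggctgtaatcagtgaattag
Hoxa3, chr6:52213018-52213317, minus strand: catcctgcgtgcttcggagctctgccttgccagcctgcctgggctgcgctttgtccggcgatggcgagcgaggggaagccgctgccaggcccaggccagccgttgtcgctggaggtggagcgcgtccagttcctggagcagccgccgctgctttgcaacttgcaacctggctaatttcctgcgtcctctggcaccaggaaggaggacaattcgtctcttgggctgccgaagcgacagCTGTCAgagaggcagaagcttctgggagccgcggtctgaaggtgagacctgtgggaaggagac
Hoxd3, chr2:74711743-74712042, plus strand: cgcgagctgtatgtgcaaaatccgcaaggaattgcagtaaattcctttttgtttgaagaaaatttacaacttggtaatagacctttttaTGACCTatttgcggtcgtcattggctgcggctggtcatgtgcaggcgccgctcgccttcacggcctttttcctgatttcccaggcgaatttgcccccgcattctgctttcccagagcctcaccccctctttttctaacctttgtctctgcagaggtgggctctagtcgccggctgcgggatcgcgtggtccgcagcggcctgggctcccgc
Hoxa5, chr6:52204538-52204837, minus strand: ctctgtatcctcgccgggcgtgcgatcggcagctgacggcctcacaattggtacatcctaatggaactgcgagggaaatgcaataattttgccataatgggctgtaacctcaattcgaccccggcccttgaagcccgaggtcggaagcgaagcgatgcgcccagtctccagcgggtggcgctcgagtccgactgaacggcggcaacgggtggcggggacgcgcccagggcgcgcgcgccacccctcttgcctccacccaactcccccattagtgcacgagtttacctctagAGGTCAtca
The Hoxa2 window held 1 match to TGATNNAT and 1 to TGACAG, the Hoxa3 window 1 to TGACAG, and the Hoxd3 and Hoxa5 windows 1 each to AGGTCA. The Hoxa3 window lies between those of Hoxa6 and Hoxa7, and the annotated Hoxa3 gene overlaps Hoxa4, Hoxa5 and Hoxa6. Likewise the Hoxd3 window lies between those of Hoxd8 and Hoxd4, and Hoxd3 overlaps Hoxd4. Whether these starts are used in this tissue was not tested. No marked motif overlapped another. Of 9 promoters of groups 1 to 5 in the table, 5 held AGGTCA, 2 held TGATNNAT, 2 held TGACAG and 1 held AGTTCA. Of 14 promoters of groups 6 to 13, 2, 1, 0 and 1 held these motifs in that order. Among all 32851 promoters of the same length, 16.3% held AGGTCA, 8.85% TGATNNAT, 19.2% TGACAG and 14.0% AGTTCA. A match is a run of letters and does not show binding. The 9 promoters of groups 1 to 5 held a median of 14 CG pairs and the 14 of groups 6 to 13 a median of 17.5, against 7 over all promoters.

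Of the 12 Hox genes of groups 2 to 5, 11 stood above the level of silent genes, and none of the 23 of groups 6 to 13 did. The 1190 olfactory and vomeronasal receptor genes, whose known sites are the nose and the vomeronasal organ, served as a scale: their 95th percentile lay between 6.84 and 7.10 on the 4 arrays and their 99th at 7.80 or below. Levels of different probe sets are not comparable with each other, so this scale only says which values lie within the range of such genes. On 1 array or more, 12 of the 37 Hox genes exceeded the 99th percentile, against 64.4% of all genes. All 12 belonged to groups 1 to 5, and 11 of them to groups 2 to 5, where Hoxd4 was the exception. At the 95th percentile the count was 19 of 37, against 75.6% of all genes, with 13 of 14 from groups 1 to 5 and 6 of 23 from groups 6 to 13.

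**Figure D1:**
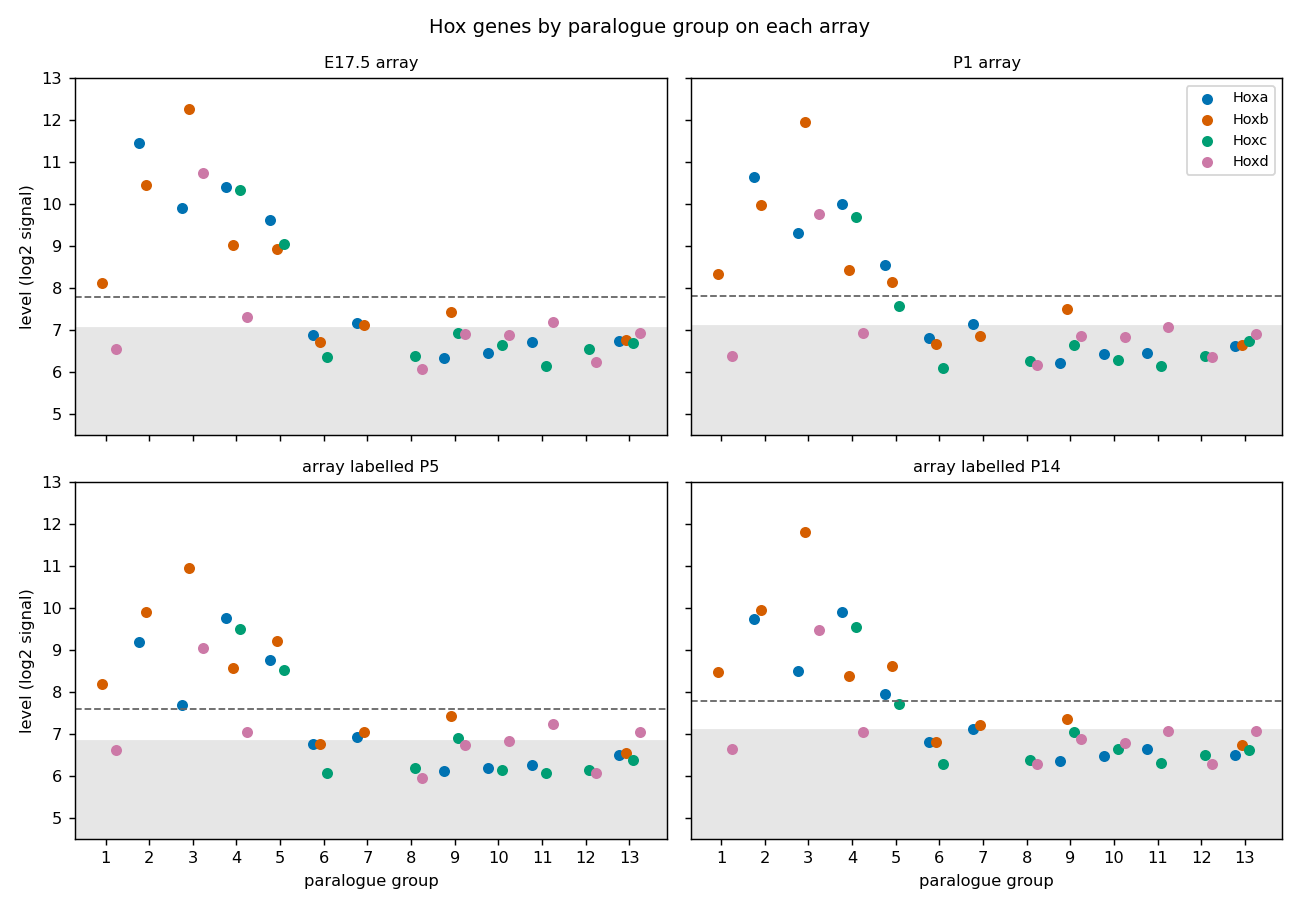
Level (log2 signal) of each of the 37 Hox genes on the 4 arrays, by paralogue group on the horizontal axis and coloured by cluster. The grey area ends at the 95th percentile of 1190 olfactory and vomeronasal receptor genes and the dashed line marks their 99th. Groups 6 to 13 stay below the dashed line on every array, with levels between 5.95 and 7.49.

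The 23 genes of groups 6 to 13, which pattern the trunk, limbs and tail end, were nearly flat. Their levels spanned 5.95 to 7.49, and no gene had a range over the 4 arrays above 0.51. Hoxc10, a gene of the lumbar cord and hindlimb, had that widest range, with 6.65 (E17.5), 6.28 (P1), 6.14 (P5-labelled) and 6.63 (P14-labelled). Hoxb9 of the thoracic cord had 7.42, 7.49, 7.42 and 7.35 in the same order. The 6 genes above the 95th percentile on some array were Hoxa7, Hoxb7, Hoxb9, Hoxc9, Hoxd11 and Hoxd13. Hoxa7 stood at 7.16, 7.14, 6.92 and 7.12, and Hoxb7 at 7.13, 6.85, 7.05 and 7.22. Hoxc9 stood at 6.93, 6.64, 6.90 and 7.04. The Hoxd genes of this set stood at 7.18, 7.06, 7.23 and 7.08 (Hoxd11) and at 6.93, 6.91, 7.04 and 7.07 (Hoxd13). The other 17 genes lay between 5.95 and 6.90. Every difference of these 23 genes in every comparison lay within the range that held the middle 95% of the receptor genes' differences. The share of all genes within that range was not counted. Hoxa13, a limb and hindgut gene at the end of its cluster, shows this flatness, at 6.74, 6.62, 6.50 and 6.50. The shared probe set of Hoxb8 and Hoxb7 read between 5.68 and 6.02.

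Group 1 acts earliest in the hindbrain, where Hoxb1 specifies the fourth rhombomere. Its levels were 8.13 (E17.5), 8.34 (P1), 8.19 (P5-labelled) and 8.49 (P14-labelled). It was the only gene above the 99th percentile outside groups 2 to 5, and it was the one low-numbered gene with its lowest level at E17.5. Hoxd1 stood at 6.54, 6.39, 6.61 and 6.63, within the receptor genes' range.

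**Figure D2:**
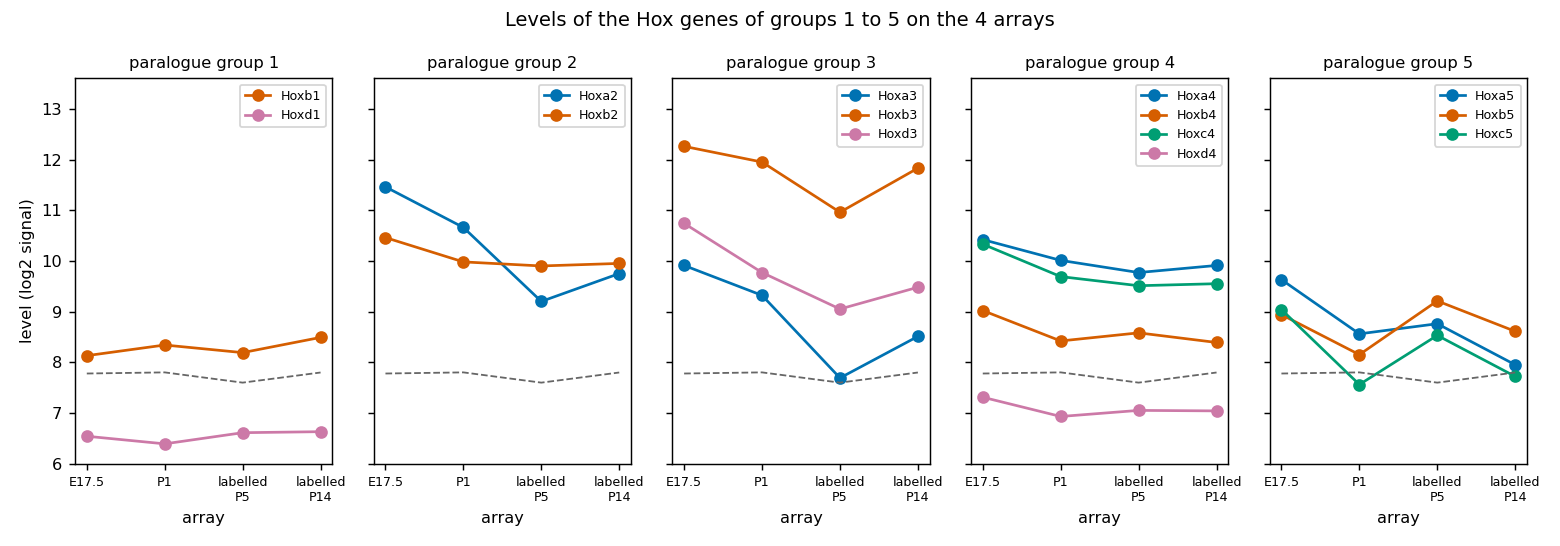
Level (log2 signal) of the Hox genes of groups 1 to 5 on the 4 arrays, 1 panel per paralogue group, coloured by cluster as in the plot of all 37 genes. The dashed line is the 99th percentile of the receptor genes. Groups 2 and 3 are lowest on the P5-labelled array, whereas in group 5 that array is higher than P1 for all 3 genes.

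Around birth all 12 genes of groups 2 to 5 were lower at P1 than at E17.5, with a median log2 difference of −0.62. Groups 1 to 5 had been planned as 1 set. Taken so, 13 of 14 genes were lower, with a median of −0.595. Of all genes with a mean level at or above 8.41, 60.8% were lower by any amount, with a median difference of −0.07. Hoxc5 and Hoxa5 were at least 2-fold lower and no Hox gene was at least 2-fold higher. Over all 37 members the count was 2 lower and 0 higher, against 0.166% lower and 0.502% higher among all 19938 genes. Among the 10 members with a mean level at or above 8.41 it was 1 lower, against 0.151% of genes at that level. At 1.5-fold, 8 members were lower, against 1.42% of all genes. The median over all 37 was −0.15, with 23 of them in the flat groups 6 to 13, and that over all genes was −0.03.

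Hoxc5 and Hoxa5 had the largest differences at birth. Hoxc5 stood at 7.56 at P1, against 9.04 at E17.5, a difference of −1.48 or 2.79-fold, and its P1 value lay within the receptor genes' range, so the size is inexact. Hoxa5, which marks posterior pontine neurons, stood at 8.56 at P1, against 9.63 at E17.5 (−1.07, 2.10-fold).
Hoxd3 of group 3, which with Hoxa3 patterns the hindbrain and neck, followed in size (−0.97), with 9.77 at P1 and 10.74 at E17.5. Hoxa2 had 10.66 at P1 and 11.46 at E17.5 (−0.80), and Hoxb5 had 8.15 at P1 and 8.94 at E17.5 (−0.79). The other members were within 1.6-fold, from Hoxc4 (−0.64), Hoxb4 (−0.60) and Hoxa3 (−0.59) to Hoxb2 (−0.48), Hoxa4 (−0.41), Hoxd4 (−0.38) and Hoxb3 (−0.31). Of the 12, 9 lay below the range of the middle 95% of receptor genes' differences, −0.45 to 0.39. The share of all genes below that range was not counted. By paralogue group the medians were −0.64 (group 2), −0.59 (group 3), −0.505 (group 4) and −1.07 (group 5).

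**Figure D3:**
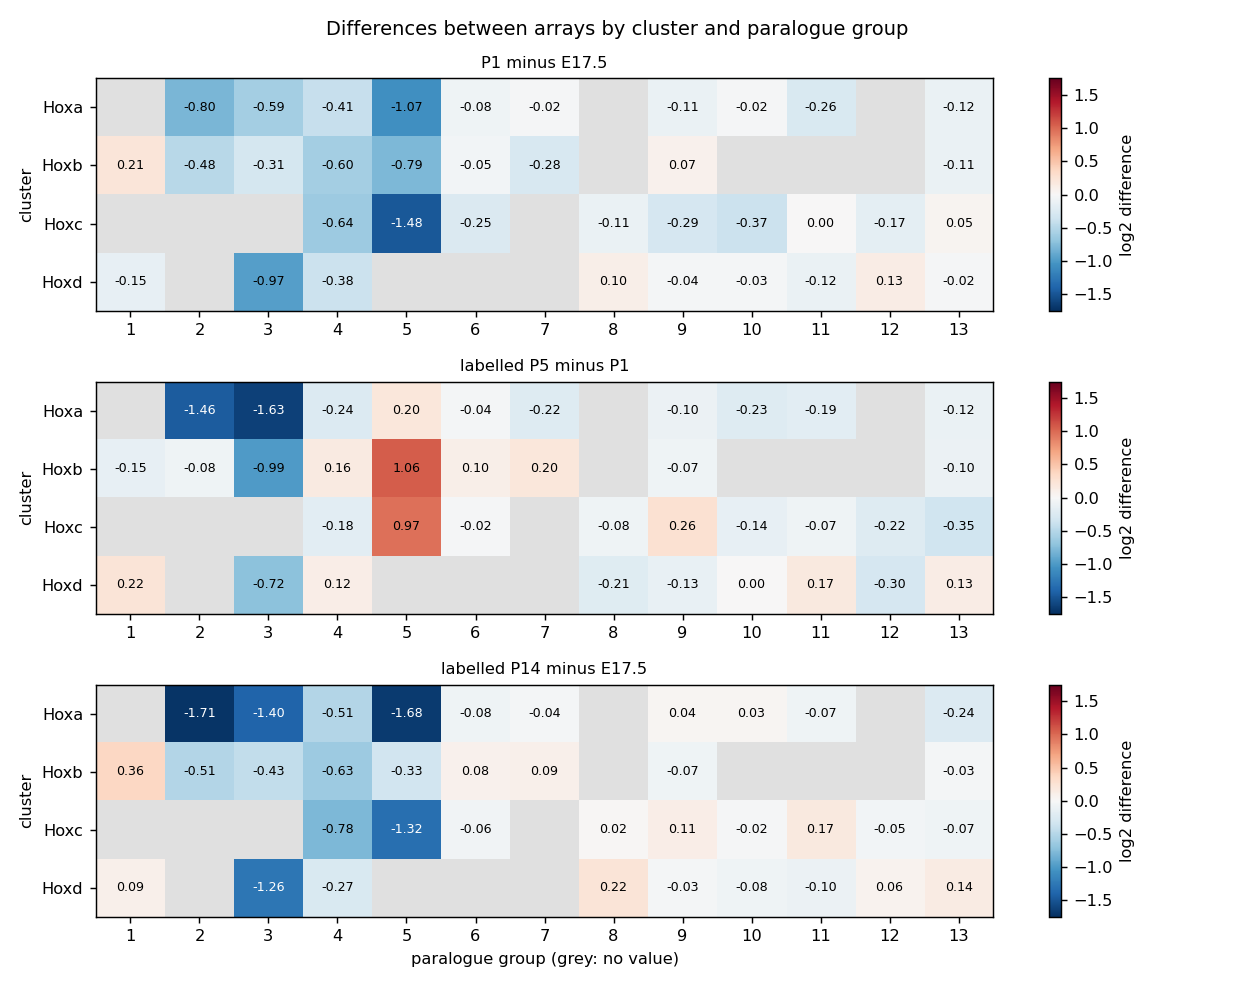
Log2 difference between arrays for each of the 37 Hox genes, by cluster (rows) and paralogue group (columns, grey where none of the 37 falls), for P1 minus E17.5, labelled P5 minus P1 and labelled P14 minus E17.5. Blue is lower and red is higher in the first-named array. At P1 all genes of groups 2 to 5 are blue, and on the P5-labelled array groups 2 and 3 are blue (faint for Hoxb2) and group 5 red.

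On the P5-labelled array the paralogue groups parted. Groups 2 and 3 were lower than at P1 in 5 of 5 genes, with a median of −0.99. By any amount, 52.6% of all genes were lower there than at P1. Among genes with a mean level at or above 8.41 it was 46.7%. Group 4 differed little, with a median of −0.03 and 2 of 4 genes lower. Group 5 was higher than at P1 in 3 of 3 genes, with a median of 0.97. That median is the value of Hoxc5, whose P1 level lay within the receptor genes' range. The difference of Hoxa5, 0.20, was near the probe set spread of 0.17 for this comparison. The middle 95% of receptor genes' differences ran from −0.64 to 0.46. Of the 12 genes of groups 2 to 5, 4 lay below it, 6 inside and 2 above. The share of all genes outside it was not counted. The directions of groups 2 and 3 together and of group 5 were the same after quantile normalisation of the arrays and after centring each array on its median. Centring moved the median of all genes to −0.14, where it had been −0.03. Against the background of the comparison, 2 of 37 members were at least 2-fold lower and 1 at least 2-fold higher, where all genes gave 2.43% lower and 5.52% higher. At 1.5-fold the counts were 4 lower and 2 higher, against 8.15% and 12.8% of all genes. After centring, 0 members were at least 2-fold higher.

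Hoxa3 had the largest difference, with 7.69 on the P5-labelled array and 9.32 at P1 (−1.63, 3.10-fold). Hoxa2, the Hox gene with the most anterior limit in the hindbrain, had 9.20 on the P5-labelled array and 10.66 at P1 (−1.46, 2.75-fold). Hoxb3 stood at 10.96 on the P5-labelled array against 11.95 at P1 (−0.99) and Hoxd3 at 9.05 against 9.77 at P1 (−0.72). Hoxb2, the paralogue of Hoxa2, had nearly the same level on both arrays, 9.90 on the P5-labelled one and 9.98 at P1.
In group 5, Hoxb5 had 9.21 on the P5-labelled array and 8.15 at P1 (1.06, 2.08-fold). Hoxc5 had 8.53 on the P5-labelled array and 7.56 at P1 (0.97), and Hoxa5 had 8.76 and 8.56 on these arrays (0.20). Hoxb5 was the only member of groups 2 to 5 with its highest level away from E17.5.
The 4 genes of group 4, Hoxa4 (−0.24), Hoxb4 (0.16), Hoxc4 (−0.18) and Hoxd4 (0.12), were all within 1.2-fold. In the order of the labels, Hoxa4 stood at 10.42, 10.01, 9.77 and 9.91, and Hoxb4 at 9.02, 8.42, 8.58 and 8.39. Hoxc4 stood at 10.33, 9.69, 9.51 and 9.55. Hoxd4 stood at 7.31, 6.93, 7.05 and 7.04, within the receptor genes' range. In each of the 4, E17.5 was the highest and the other 3 arrays lay close together.

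The next comparison shares the P5-labelled array with the previous one, with the opposite sign. Relative to the P5-labelled array, all 5 genes of groups 2 and 3 were higher on the P14-labelled one (median 0.55), from Hoxb3 (0.87) and Hoxa3 (0.82) down to Hoxb2 (0.05). All 3 genes of group 5 were lower, Hoxa5 and Hoxc5 by 0.81 each on the log2 scale and Hoxb5 by 0.60. By any amount, 45.1% of all genes were lower in this comparison, and 56.4% of those with a mean level at or above 8.41. No Hox gene was 2-fold apart, against 2.75% of all genes lower and 1.3% higher. At 1.5-fold 3 were lower and 2 higher, against 8.08% and 5.72% of all genes. The P14-labelled value lay between P1 and the P5-labelled array in 10 of the 12 genes of groups 2 to 5 (83.3%, against the 86.2% given for genes with a 2-fold range), the exceptions being Hoxa5 and Hoxb4. Hoxb3 reached 11.83 on the P14-labelled array, Hoxb2 9.95 and Hoxb5 8.61. Between the arrays labelled P14 and P1, Hoxa2 (−0.91), Hoxa3 (−0.81) and Hoxa5 (−0.61) had the largest negative differences and Hoxb5 the largest positive one (0.46). None reached 2-fold, where 0.0853% of all genes were lower and 0.823% higher.

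Over the widest span of labels, P14 against E17.5, all 12 genes of groups 2 to 5 were lower, with a median of −0.705. Within groups 1 to 5 it was 12 of 14, with a median of −0.57. Lower by any amount were 25 of 37 members, against 49.2% of all genes and 59.6% of those with a mean level at or above 8.41. The count at least 2-fold lower was 5 of 37 members and none was at least 2-fold higher, against 0.742% lower and 2.73% higher among all genes. Among the 10 members with a mean level at or above 8.41 it was 4, against 0.979% of all genes at that level. Hoxa2 stood at 9.75 on the P14-labelled array, against 11.46 at E17.5 (−1.71, 3.27-fold). Hoxa5 stood at 7.95 against 9.63 at E17.5 (−1.68, 3.20-fold), Hoxa3 at 8.51 against 9.91 (−1.40) and Hoxd3 at 9.48 against 10.74 (−1.26). Hoxc5 stood at 7.72 on the P14-labelled array, again within the receptor genes' range, and 9.04 at E17.5 (−1.32). On the P5-labelled array the members at least 2-fold below E17.5 were Hoxa2 (−2.26, 4.79-fold), Hoxa3 (−2.22), Hoxd3 (−1.69) and Hoxb3 (−1.30), where all genes gave 3.37% lower and 7.04% higher. The Hoxa3 level there lay near the receptor genes' range. No Hox gene was at least 2-fold higher. These comparisons share the E17.5 array.

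By cluster, the 4 Hoxa genes of groups 2 to 5 had a median of −1.54 on the P14-labelled array relative to E17.5, with 3 of 4 at least 2-fold lower, and of −0.695 at P1. The 4 Hoxb genes of the same groups had medians of −0.47 and −0.54, with none at least 2-fold lower. On the P14-labelled array relative to E17.5, Hoxa5 had −1.68 and Hoxb5 −0.33, whereas in group 4 Hoxa4 had −0.51 and Hoxb4 −0.63. In the same comparison the 2 Hoxc genes had −0.78 (Hoxc4) and −1.32 (Hoxc5), and the 2 Hoxd genes −1.26 (Hoxd3) and −0.27 (Hoxd4). In the gene table Hoxa3 overlaps Hoxa4, Hoxa5 and Hoxa6, Hoxb3 overlaps Hoxb4, and Hoxd3 overlaps Hoxd4, and whether their probe sets read the shared transcripts was not tested.

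Members had their highest level at E17.5 in 21 of 37 cases. All genes gave 31.1%, and those with a mean level at or above 8.41 gave 38.3%. Within groups 2 to 5 it was 11 of 12 cases, within groups 1 to 5 11 of 14, and within groups 6 to 13 10 of 23. The E17.5 level exceeded the P1 level in 31 of 37, against 55.7% of all genes, a comparison that leaves out the arrays labelled P5 and P14. Of these, 18 belonged to the 23 genes of groups 6 to 13, whose median difference was −0.08. The lowest level fell on the P5-labelled array in 22 of 37, against 40.8% of all genes. Among genes with a mean level at or above 8.41 the share was 34.4%, against 7 of the 10 members at that level. Receptor genes also had their lowest median on the P5-labelled array, 5.21, against 5.32 to 5.36 on the others. In groups 6 to 13, where the levels lie within the receptor genes' range, 15 of 23 were lowest on that array, by small amounts.

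Other transcripts inside the clusters were looked at after the Hox values had been seen. Of 31 such genes in the RefSeq annotation, 10 were measured. All 4 long noncoding RNAs among them, and the microRNA genes Mir10b and Mir196a-2, were lower on each of the other arrays than at E17.5. That makes 6 of 10 highest at E17.5, against 31.1% of all genes. Hoxd3os1 and Mir196a-2 lay within the receptor genes' range and differed by −0.01 each on the P14-labelled array. Mir196b (0.28) and Mir10a (0.44) were higher at P1 than at E17.5, and Mir196a-1 (0.13) and Mir615 (0.08) on the P14-labelled array. Hoxaas2, between Hoxa2 and Hoxa3, stood at 9.25, 8.38, 8.14 and 7.77 in the order of the labels. 5730596B20Rik, also of the Hoxa cluster, stood at 8.55, 7.91, 7.11 and 7.22. Haglr of the Hoxd cluster stood at 7.62, 6.97, 6.53 and 6.81, below the 99th percentile of the receptor genes throughout. Hoxd3os1 of the same cluster was also below it, at 6.43, 6.38, 6.29 and 6.42. The hairpin probe sets of Mir10a and Mir10b, microRNA genes next to Hoxb4 and Hoxd4, read at most 4.41, and the microRNA gene Mir615, listed next to Hoxc5, read between 8.23 and 8.64. Mir615 differed by −0.03 at P1 from E17.5, where Hoxc5 differed by −1.48.
Protein-coding genes next to the clusters were mostly level, as were most genes. At least 2-fold lower than at E17.5 were 0.166% of all genes at P1 and 0.742% on the P14-labelled array. At least 2-fold higher were 0.502% and 2.73%. Of 24 flanking genes 21 were measured, and none was 2-fold apart at P1 or on the P14-labelled array against E17.5, with medians of −0.09 and −0.01. At P1 Calcoco1, beyond the high-numbered end of the Hoxc cluster (−0.74), and the chromatin protein gene Cbx1, beyond the low-numbered end of the Hoxb cluster (−0.48), had the largest negative differences. Evx1, the homeobox gene nearest to Hoxa13, stood at 7.17, 7.22, 6.72 and 7.16.

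**Figure D4:**
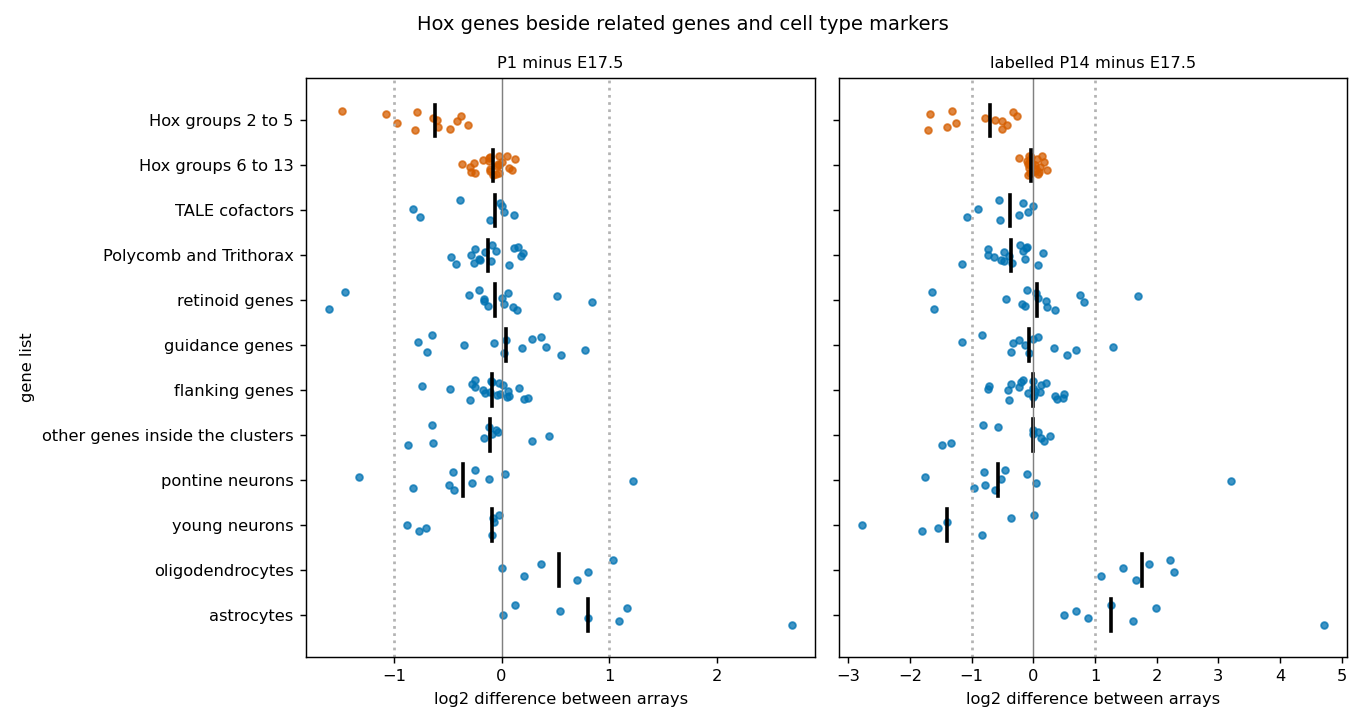
Log2 differences of single genes (points) and their median (black bar) for the Hox groups, genes that act with or on Hox genes, cluster neighbours and cell type markers, at P1 minus E17.5 (left) and labelled P14 minus E17.5 (right). Dotted lines mark a 2-fold difference. The Hox genes of groups 2 to 5 have medians of −0.62 and −0.705, while the medians of oligodendrocyte and astrocyte markers lie above 0.

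Hox proteins bind DNA together with TALE homeodomain proteins of the Meis, Pbx and Pknox families. Of 9 such genes 8 were measured, and none was 2-fold apart at P1 (median −0.06), although Pbx3 (−0.82) and Meis2 (−0.76) came near. That count is near the share of all genes, of which 0.166% were at least 2-fold lower at P1 and 0.502% higher. On the P14-labelled array all 8 TALE genes were lower than at E17.5 (median −0.385). Meis2 was at least 2-fold lower (−1.08), with levels of 11.47, 10.71, 9.68 and 10.39 in the order of the labels. On the P5-labelled array against P1, Meis1 (−1.54) and Meis2 (−1.03) were at least 2-fold lower.
Retinoic acid turns on low-numbered Hox genes in the embryo. Of 14 retinoid genes, the receptor gene Rarb was at least 2-fold lower at P1, with 7.42 against 9.02 at E17.5, as was the binding protein gene Crabp1, with 11.90 against 13.36 at E17.5. The Rarb level at P1 lay within the range of the olfactory and vomeronasal receptor genes, so the size of its difference is inexact. The other 12 were within 2-fold, and the list's median was −0.065. Aldh1a1, an enzyme of retinoic acid synthesis, was at least 2-fold higher on the P14-labelled array, with 9.44 against 7.74 at E17.5. Its E17.5 level also lay within that range.
Polycomb proteins keep Hox genes silent and Trithorax proteins keep them active. Of 16 such genes, none was 2-fold apart at P1 (median −0.125), again near the share of all genes. Ezh2, the histone methyltransferase of Polycomb, was at least 2-fold lower on the P14-labelled array, with 10.37 against 11.52 at E17.5. On the P5-labelled array against P1, Pcgf2 (−1.80) and Rnf2 (−1.07) of the other Polycomb complex were at least 2-fold lower. The patterning genes Egr2, Cdx2, Cdx4, Gbx2 and Otx2 and the geminin gene Gmnn lay within the receptor genes' range on all 4 arrays. A difference could therefore not have been read from them. Cdx1 stood at 8.18, 8.20, 8.22 and 8.43.
Among 13 guidance genes tied to pontine migration, none was 2-fold apart at P1 (median 0.04), also near the share of all genes. Robo2, a Slit receptor gene linked to Hoxa2 in mouse pontine neurons, stood at 12.03, 12.05, 11.02 and 11.96. Unc5b, a netrin receptor gene, stood at 8.91, 8.56, 10.23 and 8.77, being at least 2-fold higher on the P5-labelled array than at P1 (1.67), as was Slit3 (1.37). Slit1 (−2.27) and Robo2 (−1.03) were at least 2-fold lower there, and Dcc, a netrin receptor gene, was so on the P14-labelled array relative to E17.5 (−1.16), where Slit3 was at least 2-fold higher (1.30).

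Cell type markers differed between the same arrays. Of 10 pontine neuron markers 8 were lower at P1 than at E17.5 (median −0.355) and 8 on the P14-labelled array (median −0.575). Lhx2 (−1.33 and −1.76) and Barhl2 (−0.82 and −0.97) had the largest negative differences. The Lhx2 level on the P14-labelled array, 7.50, lay within the receptor genes' range. Barhl1 (−0.44 and −0.62) and Pax6 (−0.49 and −0.79) were also lower. Slc17a7, the vesicular glutamate transporter VGLUT1, was higher (1.22 and 3.20). Markers of young neurons had medians of −0.09 and −1.40 in these comparisons, and −2.84 on the P5-labelled array against P1, where 6 of 7 were at least 2-fold lower. The 4 markers of GABA and glycine neurons were lower at P1 in every case (median −0.765). Of 6 oligodendrocyte markers 1 was at least 2-fold higher at P1 and all 6 on the P14-labelled array (medians 0.535 and 1.77), with levels between 12.43 and 13.52 on the P5-labelled array, against 7.05 to 9.51 at E17.5. Astrocyte markers had medians of 0.80 and 1.26, and microglial markers 0.63 and 1.08. Of 3 choroid plexus markers, Ttr and Kl lay within the receptor genes' range on all 4 arrays and Folr1 passed its 99th percentile at E17.5 alone (7.78). Of 4 cerebellar markers, Neurod1 and Pcp2 lay within that range, Gabra6 passed it on the P5-labelled array (8.34, against 5.87 at P1), and Calb1 stood at 9.66, 9.99, 7.40 and 9.60. The part of these shifts in the Hox differences was not tested.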

How the data were processed

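Total RNA of 4 pooled samples was hybridised to 1 Affymetrix array per age after whole-transcript cDNA synthesis, per the labels' protocols. The deposited values are normalised log2 signals that the authors made with Affymetrix Expression Console (version, summary method and normalisation not given in the sources used here), per the submitters' processing notes. Values ran from 1.84 to 14.72, which fits a log2 scale. Of 35556 probe sets, 21789 carried 1 symbol in the platform's table, 1621 several and 12146 none. They gave 19938 genes, taking for each the probe set of highest mean, with no filter and no rescaling. With 1 array per age, genes were counted at 2-fold and no test was run; the counting was tested on simulated data. Every Hox gene could be named, those above the 95th percentile of receptor genes with 4 values; of other lists, the members with the largest differences. Some items are not reported here. The members and lists were chosen with earlier results of these data known. Gene order and overlaps came from RefSeq genes of GRCm38.p6, for names and neighbours alone. Alternatives were the mean of probe sets, a filter on the mean level, quantile normalisation, centring, a 1.5-fold threshold and, chosen after seeing the data, leaving out the arrays labelled P5 and P14. Analyses used Python 3.11.15, pandas 2.3.3 and numpy 2.4.6.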

Additional observations from a re-analysis of the deposited data

How the results depend on the processing

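No paired analysis was possible because each age had 1 array. Of 69 recomputed values, 57 stayed within 1.5 times the count given in the report or within the probe set spread of the median given there. Averaging probe sets changed nothing, since each Hox gene has 1. Keeping only the 10 members with a mean level at or above 8.41 gave 1 Hox gene at least 2-fold lower at P1 than at E17.5, and medians of −0.62 for P1 and, on the P14-labelled and P5-labelled arrays, −0.705 and −0.845 relative to E17.5, with −0.13 for P14 relative to P1, as the flat groups dropped out by construction. With a 1.5-fold threshold, 8 Hox genes were lower at P1 than at E17.5, 4 lower and 2 higher for P5 against P1, and 3 lower and 2 higher for P14 against P5. Centring each array on its median moved the median of all genes for P5 against P1 to −0.14, where it had been −0.03, and left 0 Hox genes at least 2-fold higher there. The 99th percentile of receptor genes in place of the 95th left 12 of 19 Hox genes above it. The count highest at E17.5 was 20 after quantile normalisation, 23 without the P5-labelled array, 26 without the P14-labelled one and 31 without both. Background on the arrays was not measured, so differences of members near the receptor genes' range are inexact in size. Examples are Hoxc5, Hoxd4 and, on the P5-labelled array, Hoxa3.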
